A study of Mus musculus with 6 samples.

Results

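Translation factors are the proteins that load, move and release the ribosome on messenger RNA. The genes described here are the rows of the deposited table whose symbols begin with Eif1 to Eif6, Eef1 or Eef2, or Gspt, or are Etf1, chosen by name and not by any measured value. They numbered 67 of the 13185 rows in the table, and 3 of them were pseudogene rows. The rest carried the symbol of a factor, a close relative, or a protein that binds, regulates or modifies one.

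The cells came from a mouse model of T-ALL, a leukaemia of T cell precursors, in which Notch1 is the driver. Panobinostat, which inhibits histone deacetylases, was given at 25 nM for 2 h before 3 libraries were made, and 3 libraries came from untreated cells. Every culture, untreated ones included, had 2.5 ug/mL of plate-bound anti-CD3 and IL-2 at 100 U/mL, so the comparison was made in cells under T cell receptor and cytokine stimulation. RNA was read from the polyadenylated 3′ ends of transcripts. The sample titles give every library the same replicate number, and the library numbers used here come from the names of the deposited columns. Whether libraries within a group stem from separate cultures or animals is not in the labels, so a p-value here reflects no more than how these samples spread, and that spread may be technical.

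In initiation, eIF2 with GTP carries the initiator tRNA to the small ribosomal subunit, where eIF1, eIF1A, eIF3 and eIF5 assemble and scan the message for the start codon. The eIF4 factors bind the cap and unwind the message, and eIF5B joins the large subunit. The exchange factor eIF2B recharges eIF2 with GTP, and stress kinases that phosphorylate eIF2 alpha block that step. Elongation is driven by eEF1A, which delivers aminoacyl-tRNAs, and eEF2, which moves the ribosome, and termination by eRF1 and eRF3. In activated and malignant T cells this machinery is known to sustain growth.

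Values are log2 CPM (counts per 1000000 reads) as the authors deposited them. After sorting each library, 87.6% of positions held values within 0.05 of the mean over libraries, which is the pattern of quantile normalization, so a shift of all genes one way could not be seen. Between 5990000 and 7720000 reads per library were estimated from tied low values. Among the untreated libraries, number 1 stood apart: its first principal component score was -25.7, closer to the treated scores of 35.4 to 43.2 than the -48.0 and -41.0 of untreated libraries 2 and 3. Markers of other blood cells were present: the summed CPM of 5 erythroid genes ran from 6282 to 6683 in panobinostat and from 6666 to 7921 in untreated libraries, that of 6 myeloid genes from 1014 to 1110 in panobinostat and from 1241 to 1404 in untreated libraries, and that of 4 B cell genes from 37.1 to 37.7 in panobinostat and from 45.4 to 53.2 in untreated libraries. For 6 T cell genes it ran from 1142 to 1179 in panobinostat and from 1642 to 1728 in untreated libraries. These were Cd3d, Cd3e, Cd3g, Cd247, Lck and Ptprc, and Ptprc is not specific to T cells, so part of that sum may come from other white blood cells. Each T cell gene listed was detected in every library, Cd3d at 8.18 ± 0.04 log2 CPM in panobinostat and 8.69 ± 0.10 in untreated libraries (SD, n = 3), which fits the T cell label. Calls were 0 rises and 4 falls of 6 T cell genes, 0 and 2 of 4 B cell genes, 0 and 3 of 6 myeloid genes, and 1 and 3 of 5 erythroid genes. Over all tested genes 19.2% rose and 19.0% fell. The T cell falls were Cd3d, Cd3e, Lck and Ptprc, while Cd3g (log2 fold change 0.07) and Cd247 (-0.04) were not called. No B cell, myeloid or erythroid marker with a row was at 0, Pax5 having no row, and their part in the results below was not tested. Fewer cells of a type and less RNA per cell cannot be told apart in such samples.

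More translation factor genes rose than fell under panobinostat. Of 66 members tested, 18 rose and 4 fell in treated libraries, while 19.2% of all 12554 tested genes rose and 19.0% fell (limma with p adjusted by Benjamini-Hochberg and a threshold of 0.05, used throughout). These counts came to 27.3% and 6.06% of the tested members. Together they gave 33.3%, against 38.3% called among all tested genes. The median log2 fold change (panobinostat minus untreated) was 0.13 over the members and -0.0052 over all tested genes. No overlap between the groups was seen in 36 members (54.5%), against 51.4% of all tested genes. Of these members 25 were higher (37.9%, against 25.7% of all tested genes) and 11 lower (16.7%, against 25.7%). Without untreated library 1, 23 members rose and 8 fell, and of all tested genes 2664 rose and 2562 fell. With all libraries, 2416 and 2390 of all tested genes did.

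The summed level of the 67 rows was 23680, 23900 and 24030 CPM in panobinostat libraries 1 to 3, and 22510, 21150 and 21170 CPM in untreated libraries 1 to 3. The treated libraries were higher than each untreated library. Without Eef1a1 and Eef2, the sums were 15180, 15420 and 15540 CPM in panobinostat, against 14820, 14760 and 14560 CPM in untreated libraries. These sums are descriptions of a list and were given no test.

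**Figure D1:**
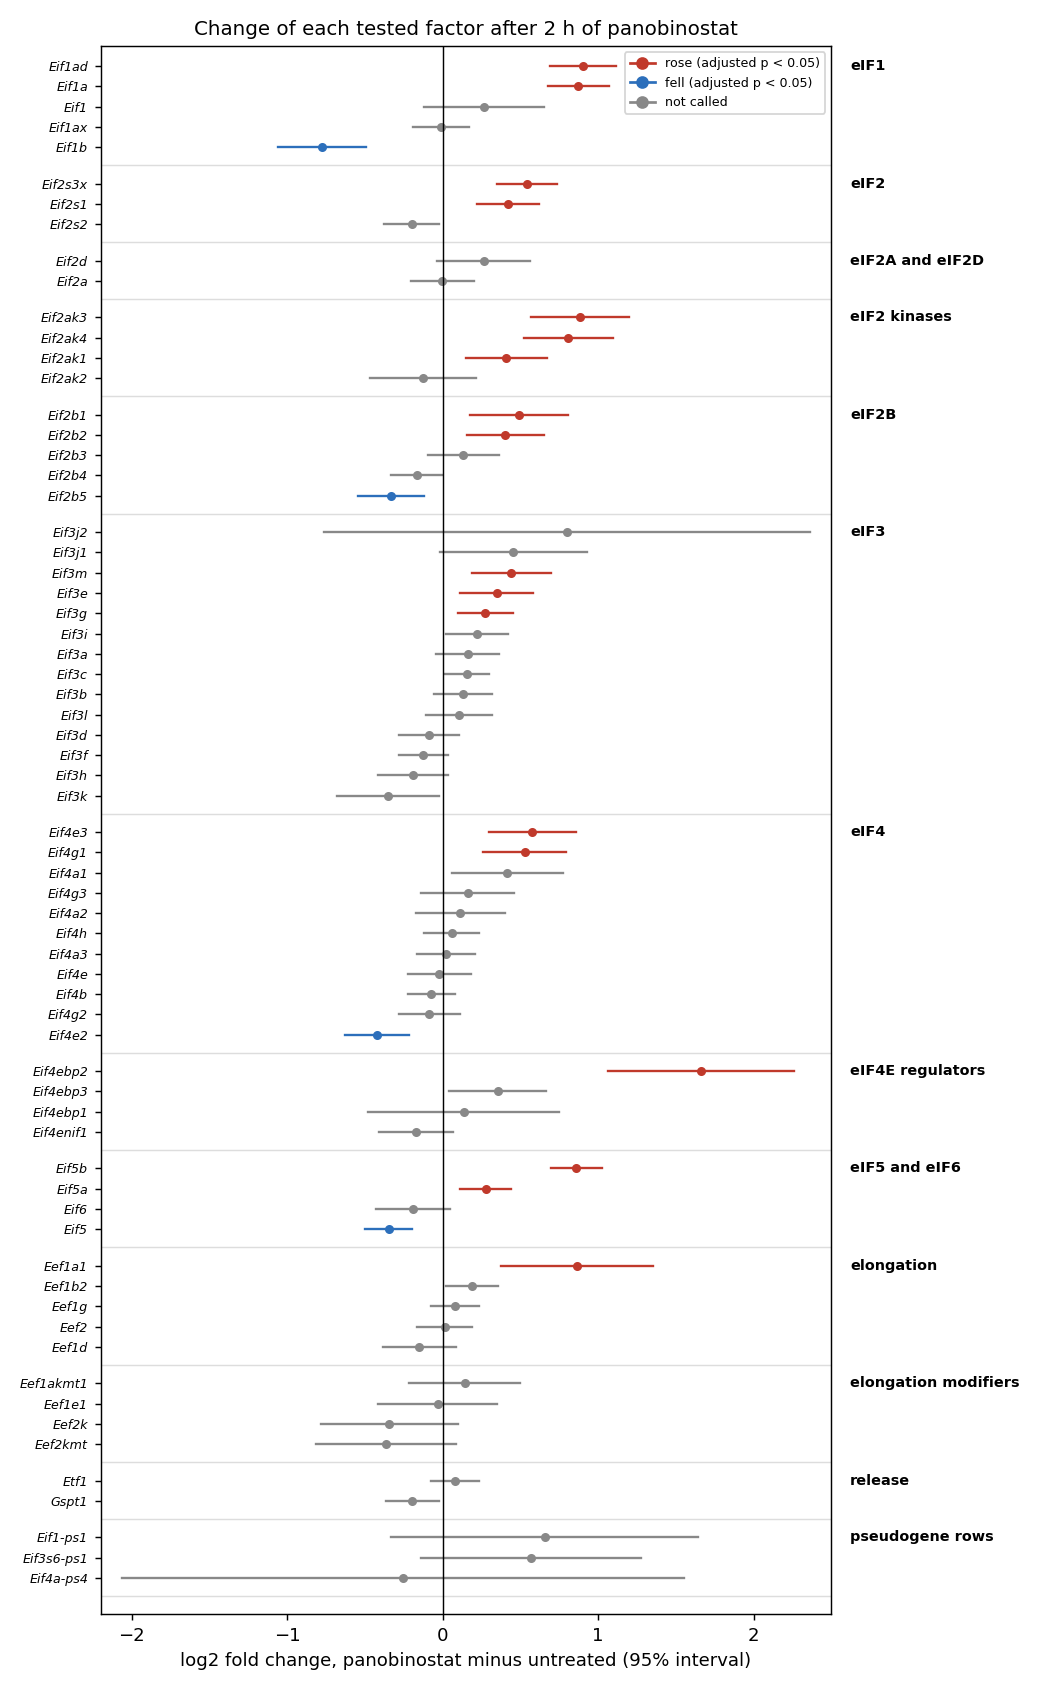
Log2 fold change (panobinostat minus untreated) of each tested member on the horizontal axis, with its 95% interval from limma, grouped by factor down the page; red marks the 18 that rose, blue the 4 that fell and grey the 44 not called. Rises spread over initiation from Eif4ebp2 at 1.66 to Eif3g at 0.27. The release factors, the elongation modifiers, eIF2A and eIF2D, and the pseudogene rows hold grey points only.

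The largest change of any tested member was in a translation repressor. Eif4ebp2 encodes 4E-BP2, which binds the cap-binding protein eIF4E and keeps it from the scaffold eIF4G until mTOR complex 1 phosphorylates it. It stood at 5.43, 5.23 and 5.78 log2 CPM in panobinostat libraries, against 4.36, 3.35 and 3.75 in untreated libraries. Every treated library was higher than every untreated library, and untreated library 1 was the highest of its group. The rise was 1.66 on the log2 scale (SE 0.26, adjusted p = 0.00266), and it lay between 1.43 and 1.93 with each library left out in turn.

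The other 4E-BP genes and the eIF4E transporter gene were not called. Eif4ebp1, which encodes the related repressor 4E-BP1, was low and variable, at 2.86, 3.62 and 3.29 log2 CPM in panobinostat and 2.69, 3.20 and 3.47 in untreated libraries, and the groups overlapped (log2 fold change 0.13, 95% interval -0.48 to 0.75, adjusted p = 0.713). For Eif4ebp3 the log2 fold change was 0.35 (adjusted p = 0.0747, and 0.46 with a call without untreated library 3). An annotated readthrough transcript shares all of the last 500 bases of Eif4ebp3, so its reads cannot be given to that gene with certainty. Eif4enif1, which encodes the eIF4E transporter 4E-T, had a log2 fold change of -0.17 (adjusted p = 0.227).

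Among the cap-binding proteins, the relatives of eIF4E moved in opposite directions. Eif4e, the main cap-binding factor, stood at 6.41, 6.41 and 6.23 log2 CPM in panobinostat and 6.31, 6.42 and 6.39 in untreated libraries, with overlapping groups (log2 fold change -0.02, 95% interval -0.22 to 0.18). Eif4e3, a relative with an atypical cap pocket, was at 6.67, 6.47 and 6.45 in panobinostat against 6.14, 5.98 and 5.73 in untreated libraries. It rose by 0.58 (SE 0.12, adjusted p = 0.00855). Eif4e2, which encodes the repressive cap-binding protein 4EHP, fell to 7.04, 6.96 and 6.92 in panobinostat libraries, against 7.29, 7.54 and 7.36 in untreated libraries (log2 fold change -0.42, SE 0.09, adjusted p = 0.00817).

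Within each library, Eif4e2 exceeded Eif4e3 by 0.38, 0.48 and 0.46 log2 units under panobinostat, against 1.14, 1.56 and 1.62 in untreated cells. These ratios did not overlap between the groups (exact permutation test, 2-sided, p = 0.1, the smallest that 3 against 3 libraries allow). Every treated library lay below every untreated one for Eif4e2, and above for Eif4e3. The outcome for this ratio was therefore fixed by those values and adds no support. Such ratios were taken for all 15 pairs within 7 families of related members, and 9 pairs did not overlap between groups. Of all tested genes, taken singly, 51.4% did not overlap. Pairs of the same family share genes and are not independent. The 9 pairs had p = 0.1 by the exact permutation test (adjusted p = 0.167), so no pair could pass a threshold of 0.05 in this design.

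Of the scaffold and helicase genes of eIF4F, the cap-binding complex, only Eif4g1 passed. Eif4g1 encodes the main scaffold eIF4G1, and stood at 8.71, 8.54 and 8.78 log2 CPM in panobinostat against 8.36, 7.95 and 8.14 in untreated libraries (log2 fold change 0.53, SE 0.12, adjusted p = 0.00984). The groups did not overlap. Its relatives Eif4g2 (-0.09), which encodes the scaffold DAP5, and Eif4g3 (0.16) were not called. The helicase gene Eif4a1 stood at 9.05, 9.15 and 9.29 in panobinostat, against 9.12, 8.52 and 8.60 in untreated libraries. Untreated library 1 overlapped the treated libraries, and without it the log2 fold change of Eif4a1 of 0.42 (adjusted p = 0.067) became 0.60 and passed. Eif4a2 (0.11), Eif4a3 (0.02), a helicase of the exon junction complex, and the helicase cofactors Eif4b (-0.07) and Eif4h (0.06) were not called.

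**Figure D2:**
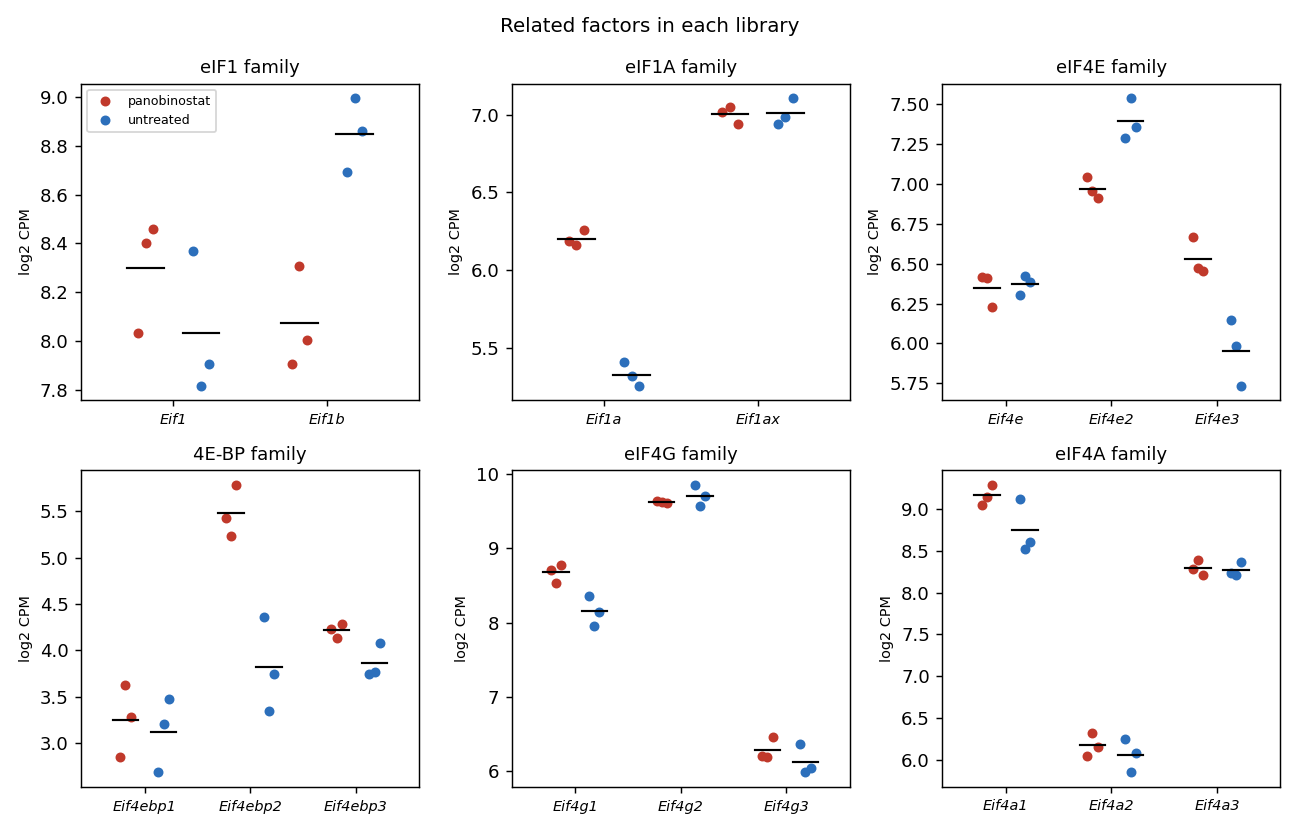
Log2 CPM in each library (points; bars are group means, n = 3) for 6 families of related factors, panobinostat in red to the left of untreated in blue for each gene. The Eif4e means are 6.35 in panobinostat and 6.37 in untreated libraries, while Eif4e3 is higher and Eif4e2 lower under panobinostat, and among the 4E-BP genes the clear separation is that of Eif4ebp2.

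Start codon factors also split between related genes. Eif1ad, which encodes a nuclear protein with an eIF1A domain, rose by 0.90 (SE 0.09, adjusted p = 0.0006), with 6.62, 6.59 and 6.69 log2 CPM in panobinostat against 5.88, 5.65 and 5.67 in untreated libraries. Eif1a, which encodes the autosomal eIF1A, rose by 0.87 (SE 0.08, adjusted p = 0.00052), with 6.19, 6.16 and 6.26 in panobinostat against 5.41, 5.32 and 5.26 in untreated libraries. In both genes the lowest treated library lay well above the highest untreated library. Eif1ax, the X-linked gene of the same factor, stood at 7.01, 7.05 and 6.94 in panobinostat and 6.94, 6.98 and 7.11 in untreated libraries (log2 fold change -0.01, 95% interval -0.19 to 0.17).

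The eIF1 genes showed the reverse order of levels in the 2 groups. Eif1b fell to 7.91, 8.31 and 8.004 log2 CPM in panobinostat libraries, against 8.69, 8.997 and 8.86 in untreated libraries (log2 fold change -0.78, SE 0.12, adjusted p = 0.00279), the largest fall of any tested member. Eif1, the main gene of this start codon gatekeeper, had 8.03, 8.40 and 8.46 in panobinostat and 8.37, 7.82 and 7.91 in untreated libraries. Eif1 was not called (log2 fold change 0.27, adjusted p = 0.241), and without untreated library 1 its 0.44 was called. Eif1 exceeded Eif1b by 0.13, 0.09 and 0.46 log2 units in the treated libraries, whereas in the untreated libraries the difference was -0.32, -1.18 and -0.96 (exact permutation p = 0.1).

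Promoters of 5 members are shown because they span the changes: the largest rise (Eif4ebp2), other rises among the largest (Eif5b and Eif1ad), a rise whose promoter holds the E-box CACGTG (Eif4g1) and the largest fall (Eif1b). CACGTG is the site that MYC with MAX and other basic helix-loop-helix factors bind, and translation factor genes are textbook MYC targets. The sequences come from RefSeq on build GRCm38.p6, run 5′ to 3′ on the gene's strand from 250 bases before the start through the first 30 bases of the transcript, and carry CACGTG in capitals.
Eif4ebp2 (chr10:61452640-61452919, minus strand): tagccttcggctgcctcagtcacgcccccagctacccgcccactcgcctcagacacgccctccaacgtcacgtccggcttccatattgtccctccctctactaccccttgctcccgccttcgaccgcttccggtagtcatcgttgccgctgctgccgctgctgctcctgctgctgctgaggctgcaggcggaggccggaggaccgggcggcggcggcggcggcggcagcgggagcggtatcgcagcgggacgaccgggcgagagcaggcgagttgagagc
Eif5b (chr1:37997760-37998039, plus strand): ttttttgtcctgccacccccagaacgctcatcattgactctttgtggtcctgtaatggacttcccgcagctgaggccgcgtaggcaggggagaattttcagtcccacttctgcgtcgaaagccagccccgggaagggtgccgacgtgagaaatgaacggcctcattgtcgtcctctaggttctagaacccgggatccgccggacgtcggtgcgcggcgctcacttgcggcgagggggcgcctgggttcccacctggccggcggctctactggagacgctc
Eif1ad (chr19:5366563-5366842, plus strand): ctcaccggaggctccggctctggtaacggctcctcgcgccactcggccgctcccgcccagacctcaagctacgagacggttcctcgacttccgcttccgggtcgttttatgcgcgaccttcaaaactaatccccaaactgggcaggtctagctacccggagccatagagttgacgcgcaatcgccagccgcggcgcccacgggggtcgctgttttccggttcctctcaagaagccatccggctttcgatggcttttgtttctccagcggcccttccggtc
Eif4g1 (chr16:20672477-20672756, plus strand): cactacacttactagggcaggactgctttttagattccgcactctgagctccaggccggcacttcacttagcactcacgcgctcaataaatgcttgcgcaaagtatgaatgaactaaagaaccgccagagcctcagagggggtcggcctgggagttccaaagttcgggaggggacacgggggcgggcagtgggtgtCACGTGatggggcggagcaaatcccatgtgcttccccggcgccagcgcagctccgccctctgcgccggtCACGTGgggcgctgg
Eif1b (chr9:120492356-120492635, plus strand): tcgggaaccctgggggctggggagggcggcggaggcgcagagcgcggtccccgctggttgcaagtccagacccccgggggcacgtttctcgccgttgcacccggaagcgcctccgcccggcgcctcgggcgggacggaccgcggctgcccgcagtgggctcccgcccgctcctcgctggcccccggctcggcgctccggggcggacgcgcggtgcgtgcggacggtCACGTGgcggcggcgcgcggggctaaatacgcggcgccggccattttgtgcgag

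Eif4g1, which rose, held CACGTG at 2 places in this window and Eif1b, which fell, at 1 place, whereas the windows of Eif4ebp2, Eif5b and Eif1ad held none. The Eif4g1 window opens at base 20672477, inside the gene, whose first annotated base is 20668313. That of Eif1b opens at 120492356, against a first annotated base of 120492232. Which start the cells used was not measured by reads from 3′ ends. In the full 300-base windows, which reach 50 bases into the transcript, 12 of 49 members with a RefSeq entry held it (24.5%), against 12% of 8563 tested genes with an entry. The word reads the same on both strands. By call, it was in 2 of 15 members that rose (13.3%), 1 of 4 that fell (25%), 8 of 29 not called (27.6%) and the untested Eif5a2. The 12 members thus include an untested gene, whereas the 8563 genes beside them were all tested. Myc itself was low, at 0.02, -1.62 and -0.52 log2 CPM in panobinostat against 1.64, 1.49 and 1.15 in untreated libraries (log2 fold change -2.13, adjusted p = 0.0107). Max, the partner of MYC, rose by 0.91 (adjusted p = 0.000872). No alternative setting was run for Myc or Max.

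Subunits of eIF2 did not move alike. Eif2s1, which encodes the alpha subunit that stress kinases phosphorylate, was at 5.66, 5.63 and 5.62 log2 CPM in panobinostat against 5.30, 5.18 and 5.18 in untreated libraries (log2 fold change 0.42, SE 0.09, adjusted p = 0.00743). Eif2s3x, the gamma subunit that binds GTP and the initiator tRNA, was at 6.70, 6.82 and 6.85 in panobinostat against 6.33, 6.24 and 6.17 in untreated libraries (log2 fold change 0.54, SE 0.08, adjusted p = 0.00254). Both were separated between the groups. The beta subunit gene Eif2s2 stood lower, at 10.74, 10.80 and 10.76 in panobinostat against 10.86, 11.07 and 10.96 in untreated libraries, and was not called (log2 fold change -0.20, adjusted p = 0.0748), though it was without untreated library 1 (-0.25). Eif2a (-0.0037) and Eif2d (0.26), tRNA-binding proteins outside the eIF2 complex, were not called.

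Of the 4 kinases that phosphorylate eIF2 alpha, 3 rose and 0 fell (75% and 0%, against 19.2% and 19.0% of all tested genes). Eif2ak3, which encodes PERK, the sensor of unfolded protein in the endoplasmic reticulum, was at 5.64, 5.61 and 5.60 log2 CPM in panobinostat against 5.01, 4.51 and 4.67 in untreated libraries (log2 fold change 0.88, SE 0.14, adjusted p = 0.00254). Eif2ak4, which encodes GCN2, the sensor of uncharged tRNA, was at 4.51, 4.41 and 4.43 in panobinostat against 3.79, 3.62 and 3.51 in untreated libraries (log2 fold change 0.81, SE 0.12, adjusted p = 0.00254). In both genes the treated libraries lay close together and above every untreated library. Eif2ak1, the haem-regulated kinase HRI, rose by 0.41 (SE 0.11, adjusted p = 0.0237), a call that needed panobinostat libraries 1 (0.43 without it) and 2 (0.33) and untreated library 2 (0.38). Eif2ak2, the double-stranded RNA sensor PKR, stood at -0.13 (95% interval -0.47 to 0.21, adjusted p = 0.516).

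The 5 subunits of eIF2B gave 2 rises and 1 fall (40% and 20%, against 19.2% and 19.0% of all tested genes). Eif2b1, the alpha subunit of the regulatory core that senses phosphorylated eIF2, was at 4.25, 4.12 and 4.07 log2 CPM in panobinostat against 3.84, 3.51 and 3.62 in untreated libraries (log2 fold change 0.49, SE 0.14, adjusted p = 0.0244). The beta subunit gene Eif2b2 was at 7.31, 7.08 and 7.22 in panobinostat against 6.67, 6.74 and 6.99 in untreated libraries (log2 fold change 0.40, SE 0.11, adjusted p = 0.0214). Eif2b5, the catalytic epsilon subunit, fell to 7.35, 7.21 and 7.17 in panobinostat libraries, against 7.43, 7.68 and 7.63 in untreated libraries (log2 fold change -0.33, SE 0.09, adjusted p = 0.0232). None of these groups overlapped, but all 3 calls rest on single libraries: Eif2b1 kept its call only without untreated library 1, Eif2b2 lost it without panobinostat library 1 (0.35) or 3 (0.39) or untreated library 2 (0.37), and Eif2b5 lost it without panobinostat library 2 (-0.32) or 3 (-0.30) or untreated library 2 (-0.29) or 3 (-0.31). The calls of Eif2b2 and Eif2b5 were also lost when the spread was fitted without a mean-variance trend. Eif2b1 ranged from 0.42 to 0.53 in the fits in which its call was lost. Eif2b3 (0.13) and Eif2b4 (-0.17) were not called, though their groups did not overlap either.

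Most of eIF3, the large scaffold on the small ribosomal subunit, was not called: 3 rose (21.4%, against 19.2% of all tested genes) and 0 fell of 14 tested, with a median log2 fold change of 0.16. Eif3m was at 5.98, 5.90 and 6.07 log2 CPM in panobinostat against 5.73, 5.40 and 5.50 in untreated libraries (log2 fold change 0.44, SE 0.11, adjusted p = 0.016). Eif3e was at 7.03, 7.22 and 7.22 in panobinostat against 6.97, 6.75 and 6.70 in untreated libraries (log2 fold change 0.35, SE 0.10, adjusted p = 0.0288). Eif3g, an RNA-binding subunit, was at 7.07, 7.02 and 6.91 in panobinostat against 6.71, 6.68 and 6.78 in untreated libraries (log2 fold change 0.27, SE 0.08, adjusted p = 0.0259). The groups were separated in these 3 genes, yet none of the calls held against every left-out library. That of Eif3m needed panobinostat library 3 (0.40 without it) and untreated library 3 (0.42). Of the 50-base words in the last 500 bases of Eif3m, 43% also occur in Gm7658, and 30.4% of those of Eif3e occur in other genes, so these levels are uncertain. Those of Eif3e and Eif3g were each lost in 4 of 6 such fits, with values from 0.29 to 0.32 for Eif3e and from 0.24 to 0.30 for Eif3g, and when the spread was fitted without a mean-variance trend.

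The largest subunit gene, Eif3a, stood at 9.08, 8.997 and 9.04 log2 CPM in panobinostat and 9.05, 8.82 and 8.77 in untreated libraries (log2 fold change 0.16, adjusted p = 0.187). Its groups overlapped through untreated library 1. Without that library, Eif3a (0.25) and Eif3c (0.17) passed as rises, and Eif3h (-0.29) and Eif3k (-0.50), subunits outside the yeast core of the complex, passed as falls. With all libraries, Eif3c stood at 0.15, Eif3h at -0.19 and Eif3k at -0.35. Fold changes of the other subunits not called were Eif3b 0.13, Eif3d -0.09, Eif3f -0.13, Eif3i 0.22 and Eif3l 0.10 on the log2 scale.

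Eif3j1 and Eif3j2 encode near-identical forms of the eIF3j subunit, and 88.9% of the 50-base words in the last 500 bases of Eif3j2 also occur in Eif3j1. Eif3j2 stood at 6.77, 6.45 and 6.62 log2 CPM in panobinostat and at 6.78, 3.95 and 6.72 in untreated libraries, so untreated library 2 lay far below the rest. In that same library Eif3j1 was at 7.72, against 7.34 and 6.80 in untreated libraries 1 and 3 and 7.69, 7.85 and 7.70 in panobinostat libraries. The sum of both rows was 314.8, 318.8 and 305.8 CPM in panobinostat, against 271.8, 226.9 and 217.1 CPM in untreated libraries, and did not overlap. Neither row was called (log2 fold change 0.46 for Eif3j1, adjusted p = 0.116, and 0.80 for Eif3j2, adjusted p = 0.381), and without untreated library 2 Eif3j1 was called at 0.67. The split of reads between these rows is uncertain.

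The smallest adjusted p among the members was that of a factor of subunit joining. Eif5b, the GTPase that joins the large ribosomal subunit, was at 9.66, 9.59 and 9.68 log2 CPM in panobinostat against 8.87, 8.79 and 8.70 in untreated libraries. All treated libraries were above all untreated ones (log2 fold change 0.86, SE 0.07, adjusted p = 0.00032). Rev1, whose exons overlap the 3′ end of Eif5b on the opposite strand, was far lower, at 3.15 ± 0.13 log2 CPM in panobinostat and 2.38 ± 0.06 in untreated libraries (SD, n = 3), and rose as well (0.78). The strand setting of the counting is not given in the sources used here, so reads from the ends of this gene pair cannot be told apart.

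Eif5, the activator of GTP hydrolysis by eIF2, fell to 7.93, 7.96 and 7.90 log2 CPM in panobinostat libraries, against 8.33, 8.27 and 8.23 in untreated libraries (log2 fold change -0.35, SE 0.07, adjusted p = 0.00548). This fall was separated in all libraries. Eif5a, the hypusine-bearing factor that helps the ribosome past stalling peptides, was at 9.60, 9.54 and 9.68 in panobinostat against 9.34, 9.26 and 9.39 in untreated libraries (log2 fold change 0.28, SE 0.07, adjusted p = 0.0183), a call that needed panobinostat libraries 1 (0.28 without it) and 3 (0.24) and the mean-variance trend. Eif5a2, a relative with restricted expression, was under the minimum level for testing, at 0.16 ± 0.88 log2 CPM in panobinostat and -0.27 ± 0.50 in untreated libraries (SD, n = 3). Eif6, which keeps the ribosomal subunits apart, stood at -0.19 (adjusted p = 0.182).

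**Figure D3:**
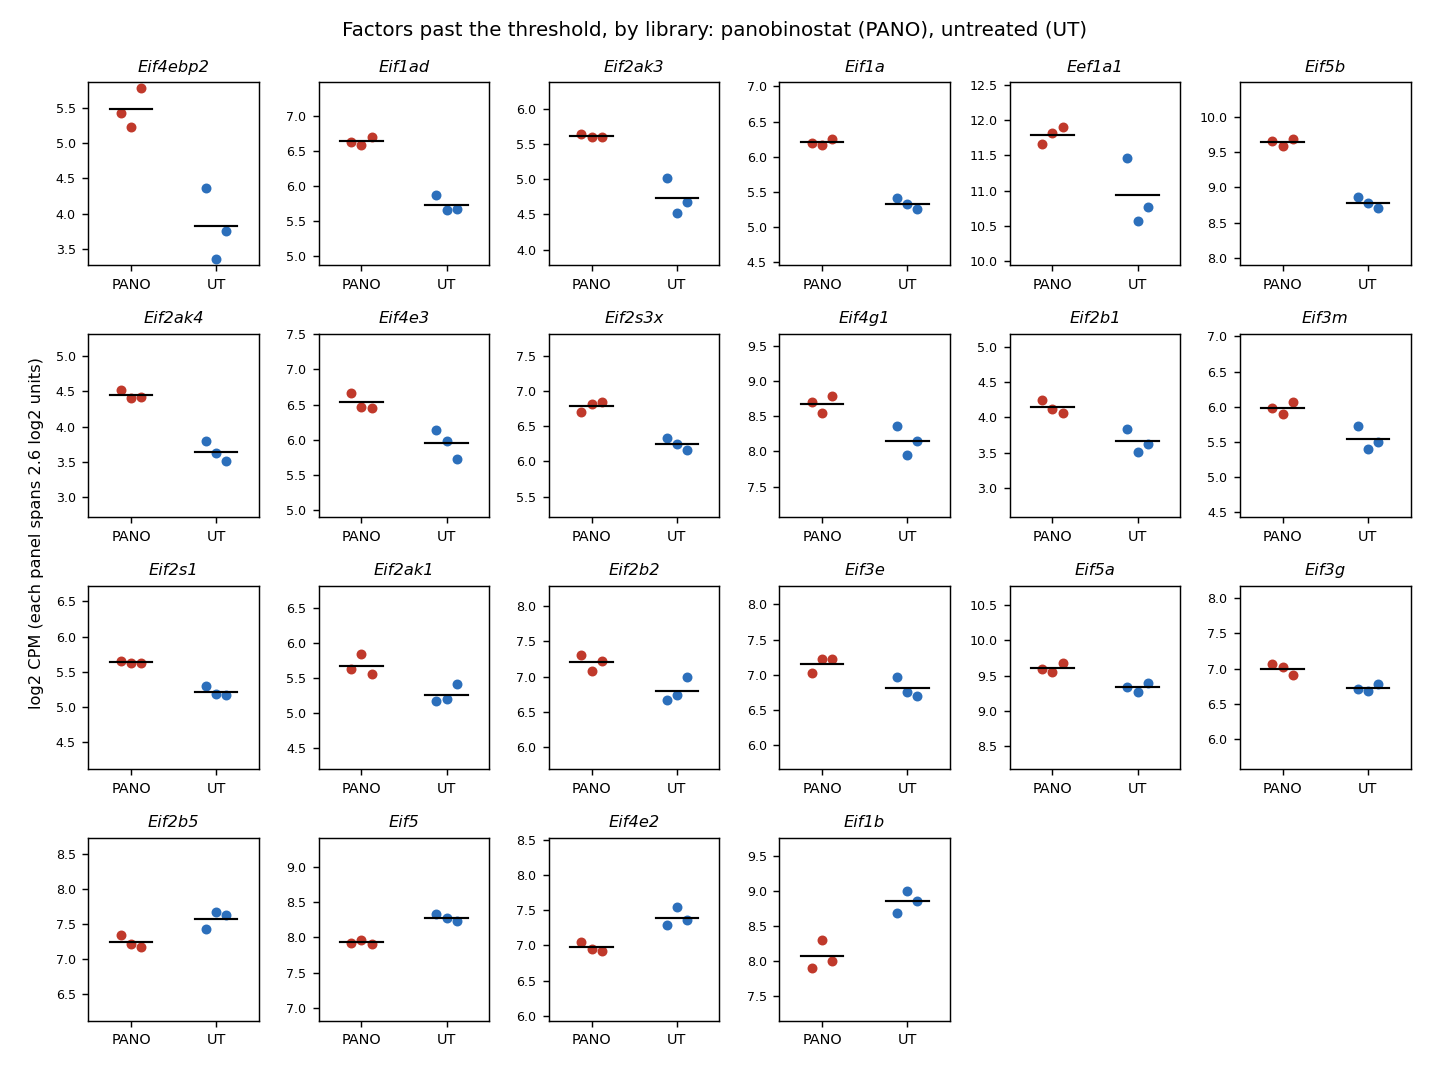
Log2 CPM of the 22 members past the threshold in each library, panobinostat (PANO, red) left of untreated (UT, blue), with bars at the group means (n = 3); every panel spans the same range of 2.6 log2 units. No gene overlaps between groups; Eif5b and Eif1a are tight in both groups, whereas Eef1a1 and Eif4ebp2 spread widely among the untreated libraries.

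In elongation, eEF1A stood out from its partners. Eef1a1 was at 11.66, 11.82 and 11.91 log2 CPM in panobinostat against 11.46, 10.57 and 10.77 in untreated libraries. Untreated library 1 lay just below the lowest treated library, and the other untreated libraries lay much lower. The rise of 0.86 (SE 0.21, adjusted p = 0.0148) needed panobinostat library 3 (0.81 without it) and untreated library 3 (0.78), and was not called under a robust estimate of the spread. Of the 50-base words in its last 500 bases, 35% also occur in other transcripts, pseudogenes among them, and the predicted gene Gm26377, annotated on the same strand over that end, gave 11.62 ± 0.13 log2 CPM in panobinostat and 10.69 ± 0.59 in untreated libraries (SD, n = 3), also a rise (0.93, adjusted p = 0.0246). The level of Eef1a1 is therefore uncertain.

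The exchange factors of eEF1A and the translocase were not called. Eef1b2 stood at 10.92 ± 0.05 log2 CPM in panobinostat and 10.73 ± 0.08 in untreated libraries (SD, n = 3), without overlap (log2 fold change 0.19, adjusted p = 0.0758), and was called without untreated library 1 (0.24). Eef1g (0.08) and Eef1d (-0.15) overlapped. Eef2 held 12.36, 12.25 and 12.18 in panobinostat and 12.25 in each untreated library. Its rank among all rows was 13, 14 and 15 in panobinostat and 14 in each untreated library, and under quantile normalization such a value is set by the rank. Its log2 fold change was 0.01 (95% interval -0.16 to 0.19).

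Enzymes that modify the elongation factors were low. Eef2k, the kinase that inactivates eEF2, stood at 3.22, 3.19 and 2.95 log2 CPM in panobinostat and 3.68, 3.59 and 3.11 in untreated libraries (log2 fold change -0.34, 95% interval -0.78 to 0.10, adjusted p = 0.19). The methyltransferase genes Eef2kmt (-0.37) and Eef1akmt1 (0.14) and Eef1e1 (-0.03), a protein of the aminoacyl-tRNA synthetase complex, were not called either. Neither release factor gene passed. Etf1, which encodes eRF1, the reader of stop codons, was at 7.64, 7.59 and 7.59 in panobinostat against 7.48, 7.57 and 7.53 in untreated libraries (log2 fold change 0.08, adjusted p = 0.363). Gspt1, which encodes the GTPase eRF3, was at 7.41, 7.33 and 7.40 in panobinostat against 7.52, 7.66 and 7.55 in untreated libraries (log2 fold change -0.19, adjusted p = 0.0685), and was called without untreated library 1 (-0.22).

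**Figure D4:**
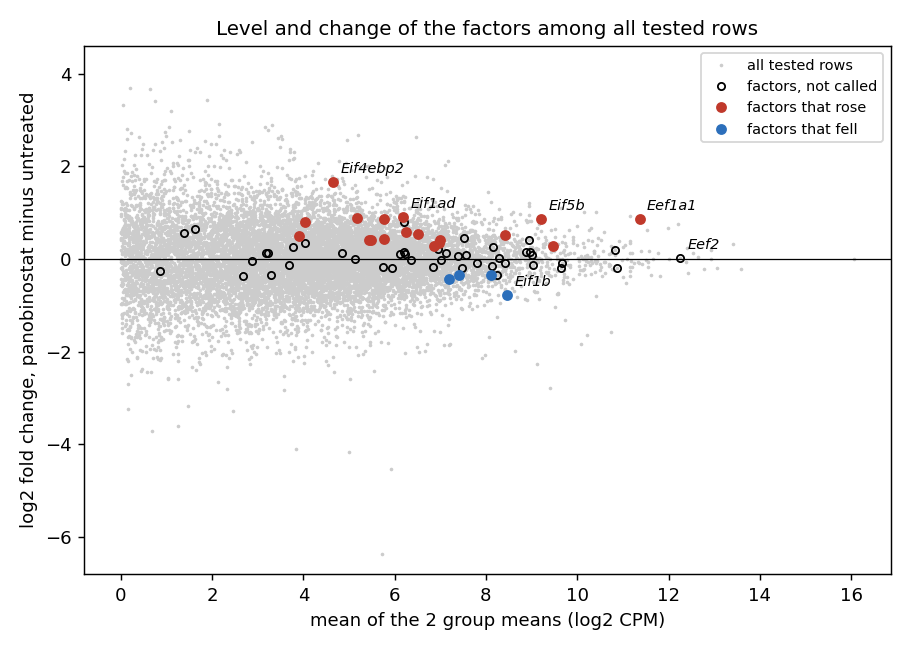
Mean level of each tested row (log2 CPM, horizontal axis) against its log2 fold change (panobinostat minus untreated, vertical axis), with all 12554 tested rows in grey, members that rose in red, members that fell in blue and members not called as open circles. The members that fell (Eif1b, Eif2b5, Eif4e2 and Eif5) lie at middle to high levels, and those that rose run from Eif2b1 at the low end to Eef1a1 at the high end.

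Genes outside the naming rule that act with these factors moved in both directions. Of 52 such genes tested, 14 rose and 9 fell, with a median log2 fold change of -0.0071. These are 26.9% and 17.3%, against 19.2% and 19.0% of all tested genes. Without each library in turn these counts ran from 7 to 16 and from 5 to 9. Among helpers of initiation 6 rose (40%) and 0 fell of 15. Paip2b, which encodes an inhibitor of poly(A)-binding protein, rose by 0.53 (SE 0.11, adjusted p = 0.00741), the helicase gene Dhx29 by 0.47 (SE 0.13, adjusted p = 0.0246) and Larp1, a binder of messages with a 5′ oligopyrimidine tract, by 0.40 (SE 0.10, adjusted p = 0.0166). Leaving out 1 library removed the call of Dhx29 in 3 fits (0.44 to 0.46) and that of Larp1 in 2 (0.33 and 0.39), and a fit without a mean-variance trend removed that of Dhx29.

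In a chosen list of signalling genes, the 4 kinase genes (Mknk1, Mknk2, Rps6kb1 and Rps6kb2) rose and Rps6 did not pass. The kinases of eIF2 alpha, described above, are not in this list. With Rps6 counted, 80% of this list of 5 rose, against 19.2% of all tested genes. Mknk1 and Mknk2 encode the kinases that phosphorylate eIF4E. Mknk2 was at 6.57, 6.53 and 6.57 log2 CPM in panobinostat against 5.87, 5.73 and 5.89 in untreated libraries (log2 fold change 0.73, SE 0.08, adjusted p = 0.000784), and Mknk1 at 3.49, 4.09 and 3.53 in panobinostat against 2.74, 2.75 and 2.61 in untreated libraries (log2 fold change 1.002, SE 0.19, adjusted p = 0.00613). Neither gene overlapped between groups. The S6 kinase gene Rps6kb2 rose by 0.51 (adjusted p = 0.0407), a call that leaving out panobinostat library 2 (0.38) or 3 (0.49), or untreated library 1 (0.40), 2 (0.58) or 3 (0.55), removed. Rps6kb1 (0.37, adjusted p = 0.0311) likewise lost its call in 5 of 6 such fits (0.27 to 0.40), and both calls were lost without a mean-variance trend.

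Around eIF2 phosphorylation, 1 rose and 1 fell of 6 (16.7% each, against 19.2% and 19.0% of all tested genes). Ppp1r15a, which encodes GADD34, the subunit that brings phosphatase to eIF2 alpha, was at 5.59, 5.55 and 5.67 log2 CPM in panobinostat against 4.77, 4.18 and 4.52 in untreated libraries (log2 fold change 1.11, SE 0.15, adjusted p = 0.00173). Atf4, the transcription factor whose translation rises when eIF2 alpha is phosphorylated, fell to 7.98, 8.04 and 7.81 in panobinostat libraries, against 8.18, 8.60 and 8.47 in untreated libraries (log2 fold change -0.47, SE 0.12, adjusted p = 0.0159). The Atf4 call needed panobinostat library 3 (-0.41 without it) and untreated library 3 (-0.45). These are transcript levels, and phosphorylation was not measured.

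Enzymes that modify eIF5A and eEF2 gave 1 rise and 3 falls of 9 (11.1% and 33.3%, against 19.2% and 19.0% of all tested genes). Dhps, which makes the first step of hypusine on eIF5A, had a log2 fold change of -0.56 (adjusted p = 0.0403), lost in 5 of 6 fits with 1 library left out (-0.61 to -0.45). In the diphthamide pathway, which modifies eEF2, Dph6 fell by 0.93 (SE 0.13, adjusted p = 0.00158), at 4.12, 4.16 and 3.83 log2 CPM in panobinostat against 4.90, 5.05 and 4.95 in untreated libraries. Dph7 rose, and was near the detection limit in untreated libraries, with 1.78, 1.64 and 1.70 in panobinostat against -0.17, -1.83 and -0.79 in untreated libraries (2.64, SE 0.47, adjusted p = 0.00426, and 1.45 with a pseudocount of 1).

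Termination and rescue genes gave 1 rise and 3 falls of 6 (16.7% and 50%, against 19.2% and 19.0% of all tested genes). N6amt1, the catalytic subunit of the methyltransferase that modifies eRF1, changed the most, at 2.77, 2.59 and 2.77 log2 CPM in panobinostat against 4.28, 4.26 and 4.21 in untreated libraries (log2 fold change -1.54, SE 0.13, adjusted p = 0.000335). All treated libraries lay far below all untreated ones. The rescue factor gene Pelo (-0.61, adjusted p = 0.0138) and Upf1 (-0.43, adjusted p = 0.0189), the helicase of nonsense-mediated decay, fell too. Each call needed panobinostat library 3 (-0.53 for Pelo and -0.38 for Upf1 without it) and untreated library 3 (-0.57 for Pelo and -0.34 for Upf1), and that of Upf1 also the mean-variance trend. Secisbp2, which guides selenocysteine insertion, fell by 0.81 (adjusted p = 0.00342), while the selenocysteine elongation factor gene Eefsec stood at -0.20.

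**Figure D5:**
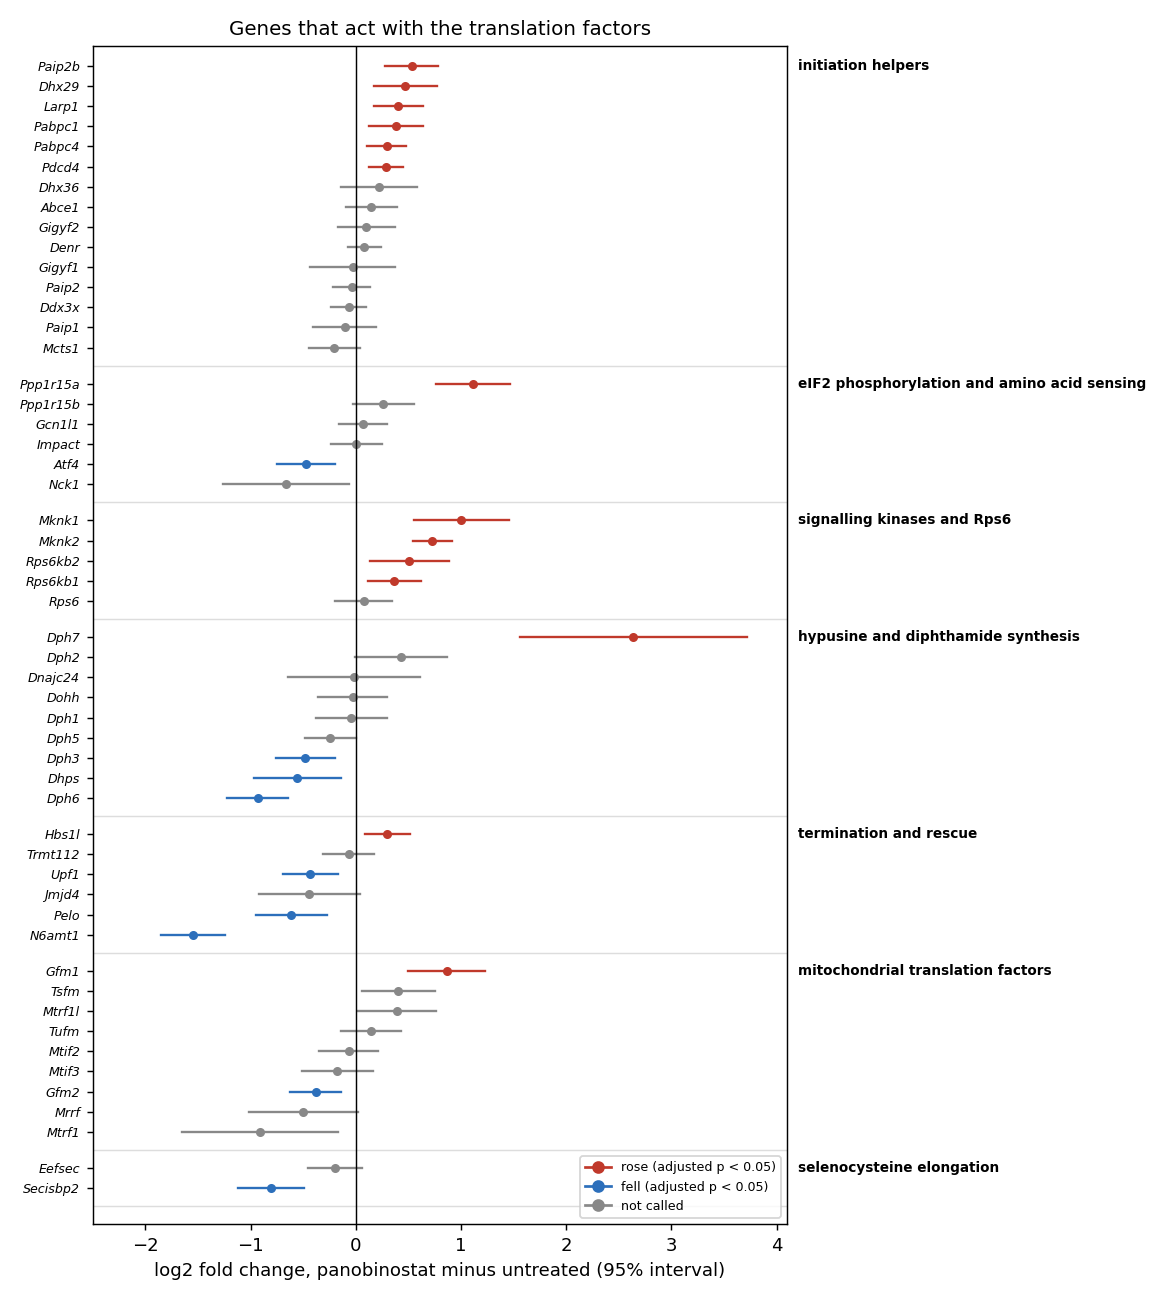
Log2 fold change (panobinostat minus untreated, horizontal axis) with its 95% interval for 52 genes that act with the translation factors, grouped by role; colours are as for the factors. The signalling kinases lie to the right of 0, and the termination and rescue genes lie mostly to the left, with N6amt1 the farthest at -1.54.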

How the data were processed

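Libraries were made with the QuantSeq 3′ mRNA kit from 100 ng of total RNA, per the labels' protocols. Per the submitters' processing notes, cutadapt 1.9, HISAT2 2.1.0, featureCounts (Subread 1.5.0) and limma were used, and the build was mm10. Which annotation, strand setting and filter were applied is not given in the sources used here. What the authors deposited was 1 table of log2 values. That these are log2 CPM, quantile normalized, was inferred from the values, whose powers of 2 summed to about 994100 in each library. Columns were matched to samples by the number after the letter S in their names.

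Rows with a mean of at least 0 log2 CPM were tested, which left out 631. limma 3.58.1 (eBayes with a mean-variance trend, R 4.3.3) was fitted on the whole table without a pseudocount, with Benjamini-Hochberg adjustment over all 12554 tested rows. Depth was estimated from the first 200 steps between distinct values, 1 step being taken as 1 read, which quantile normalization may upset. Positions came from GENCODE M21 (67 of 67 members matched) and promoters from RefSeq. Shared 3′ ends were counted as 50-base words in the last 500 bases of the longest transcript. The scripts were tested on simulated data. Python 3.11.15, pandas 2.3.3 and matplotlib 3.10.9 were used.

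The members, lists and tests were chosen with earlier results of these data known. Every member past the threshold was named, and of the other pathway genes up to 3 called ones per list by size of change. Rps6kb1, Rps6, Hbs1l, Eefsec, Myc and Max were named outside that rule, after their values were seen. Rev1 and Gm26377, also outside it, were named because they overlap the ends of Eif5b and Eef1a1. The paralog pairs and the promoters shown were chosen after the values were seen. Alternatives were other filters, scalings, spread models, sample weights, thresholds and each library left out.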

Additional observations from a re-analysis of the deposited data

How the results depend on the processing

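Members that rose numbered 18 and members that fell 4, and both counts stayed as they were with no filter, a minimum of 2 log2 CPM, median centring, trimmed mean scaling or a pseudocount of 1. An adjusted p below 0.01 gave 10 and 3 members, and among all tested genes 1240 rises and 1273 falls. Without a mean-variance trend 14 members rose and 3 fell, the calls of Eif2b2, Eif2b5, Eif3e, Eif3g and Eif5a being lost. All tested genes gave 2124 rises and 2150 falls without that trend. With sample weights, 9 members fell and 25 rose, while all tested genes gave 3018 falls and 3089 rises. With 1 library left out, member rises ran from 12 to 23 and falls from 3 to 8, and rises among all tested genes ran from 1587 to 2664 and falls from 1636 to 2562. Of 22 called members, 13 kept their call in each of these fits: Eif1a, Eif1ad, Eif1b, Eif2ak3, Eif2ak4, Eif2s1, Eif2s3x, Eif4e2, Eif4e3, Eif4ebp2, Eif4g1, Eif5 and Eif5b. Of 1053 member values under an alternative, 48 lost a call, 24 gained one and none reversed. For the other pathway genes, whose alternatives were chosen after seeing the data, rises were 8 without a mean-variance trend and 6 at an adjusted p below 0.01, where falls were 3. With 1 library left out, their rises ran from 7 to 16 and falls from 5 to 9. The labels do not pair the libraries, and deviations of same-numbered libraries correlated at -0.0444, 0.104 and -0.0108. The replicate block gave 15 rises and 3 falls among members, against 2079 rises and 2069 falls among all tested genes. The block removed the calls of Eif2ak1, Eif2b5, Eif3e and Eif3g, and those of Rps6kb1 and Hbs1l among the other pathway genes. Depth limits low rows such as Eif5a2 and Dph7, where 1 CPM was estimated at 5.99 to 7.72 reads.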

Other observations

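The pseudogene rows matched by the naming rule were low and not called. Eif1-ps1 stood at 1.95 ± 0.40 log2 CPM in panobinostat and 1.29 ± 0.80 in untreated libraries, and Eif3s6-ps1 at 1.66 ± 0.33 in panobinostat and 1.09 ± 0.37 in untreated libraries (SD, n = 3). Eif4a-ps4 stood at 0.73 ± 1.61 in panobinostat and 0.98 ± 0.75 in untreated libraries, and all of the 50-base words in its last 500 bases also occur in Eif4a1.

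Factors of the mitochondrial ribosome, which no part of the naming rule covers, gave 1 rise and 1 fall of 9 tested. These are 11.1% each, against 19.2% rises and 19.0% falls among all tested genes. The median log2 fold change of the 9 was -0.07. The elongation factor genes Gfm1 and Gfm2 moved apart. Gfm1, which encodes the translocase, was at 3.65, 3.94 and 3.96 log2 CPM in panobinostat against 3.19, 2.90 and 2.88 in untreated libraries (limma log2 fold change 0.86, SE 0.16, adjusted p = 0.00508). Gfm2, whose product recycles the ribosome, fell to 4.91, 4.92 and 4.71 in panobinostat libraries, against 5.24, 5.31 and 5.14 in untreated libraries (limma log2 fold change -0.38, SE 0.11, adjusted p = 0.0242). Its call needed panobinostat library 3 (-0.31 without it) and untreated library 2 (-0.34). In both genes the groups were separated.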
